A study of Mus musculus with 6 samples.

Results

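The genes described here encode the ligands, receptors, secreted antagonists and intracellular SMAD proteins of transforming growth factor beta (TGF-beta), activin and bone morphogenetic protein (BMP) signalling. The list held 46 genes, and its members were all probe sets that the platform annotation named for 1 of those genes alone. Of the 46, 43 were measured, by 73 probe sets, out of 12393 genes and 20380 probe sets named for a single gene. Gdf15, a stress-induced ligand, and Smurf1 and Smurf2, ubiquitin ligases that act on SMADs and their receptors, were not analysed here.

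RNA came from a pair of immortalised mouse hypothalamic cell lines that the labels describe as expressing neuropeptide Y (Npy). A_212 was derived from adult hypothalamus and N_46 from embryonic hypothalamus, and both carry an overexpressed SV40 T-antigen, the viral oncoprotein that immortalised them by blocking p53 and retinoblastoma proteins. Untreated cells of each line were grown on 3 plates to 70% confluence in DMEM with 5% FBS, and each plate was read on 1 array. The sources used here give no strain, sex or exact age of the source animals. The plates are repeats of 1 line each, so age of origin and any other feature of a line cannot be told apart. P-values therefore measure the spread between plates, which may be technical.

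In this pathway, dimeric ligands bring together type I and type II serine/threonine kinase receptors, and the activated type I receptor phosphorylates receptor-regulated SMADs. TGF-beta and activin act mainly through Smad2 and Smad3, whereas BMPs act mainly through Smad1 and Smad5, and both groups share Smad4 as partner. Secreted antagonists bind ligands, and the inhibitory Smad6 and Smad7 damp the response inside the cell. In the developing nervous system BMPs are known for dorsal patterning and glial fate, and TGF-beta is known in many tissues for inducing extracellular matrix genes.

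The deposited values are on a log2 scale and were centred to a median of 0 across the 6 arrays for each probe set. Only differences between arrays remain, so neither the presence of a transcript in a line nor the labelled cell type can be read from them. Npy itself differed by 0.05 ± 0.08 (SE, n = 3 arrays per line). Differences are N_46 minus A_212 from limma, so a positive value is higher in the embryonic-derived line, and a fold is 2 raised to the difference, with base 2 inferred. The threshold was a Benjamini-Hochberg adjusted p under 0.05 over all 12393 genes. The number of arrays limits the precision, and the median SD between plates over the members was 0.12 in A_212 and 0.10 in N_46, against 0.10 and 0.08 over all genes. N_46 replicate 1 was the array farthest from its line mean for 25 of the 43 members (58.1%), and for 47.1% of all genes.

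Of the 43 members, 15 (34.9%) passed the threshold, where 39.2% of all genes did. Out of all 43, 9 were called higher in N_46, where 20.9% of all genes were. Another 6 of the 43 were called higher in A_212, where 18.3% of all genes were. The share of members called was thus near that of all genes. A call with a difference of at least 1 was found for 4 of the 43 members, and for 5.83% of all 12393 genes. These were the matrix gene Tgfbi and the activin antagonist Fstl3, both higher in A_212, and the activin subunit gene Inhbb and the activin antagonist Fst, both higher in N_46. No overlap between the arrays of the lines was seen for 25 members (58.1%), 14 of them higher in N_46, against 51.1% of all genes. The median difference over the members was 0.06, the same as over all genes, and the median absolute difference was 0.20 against 0.17.

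**Figure D1:**
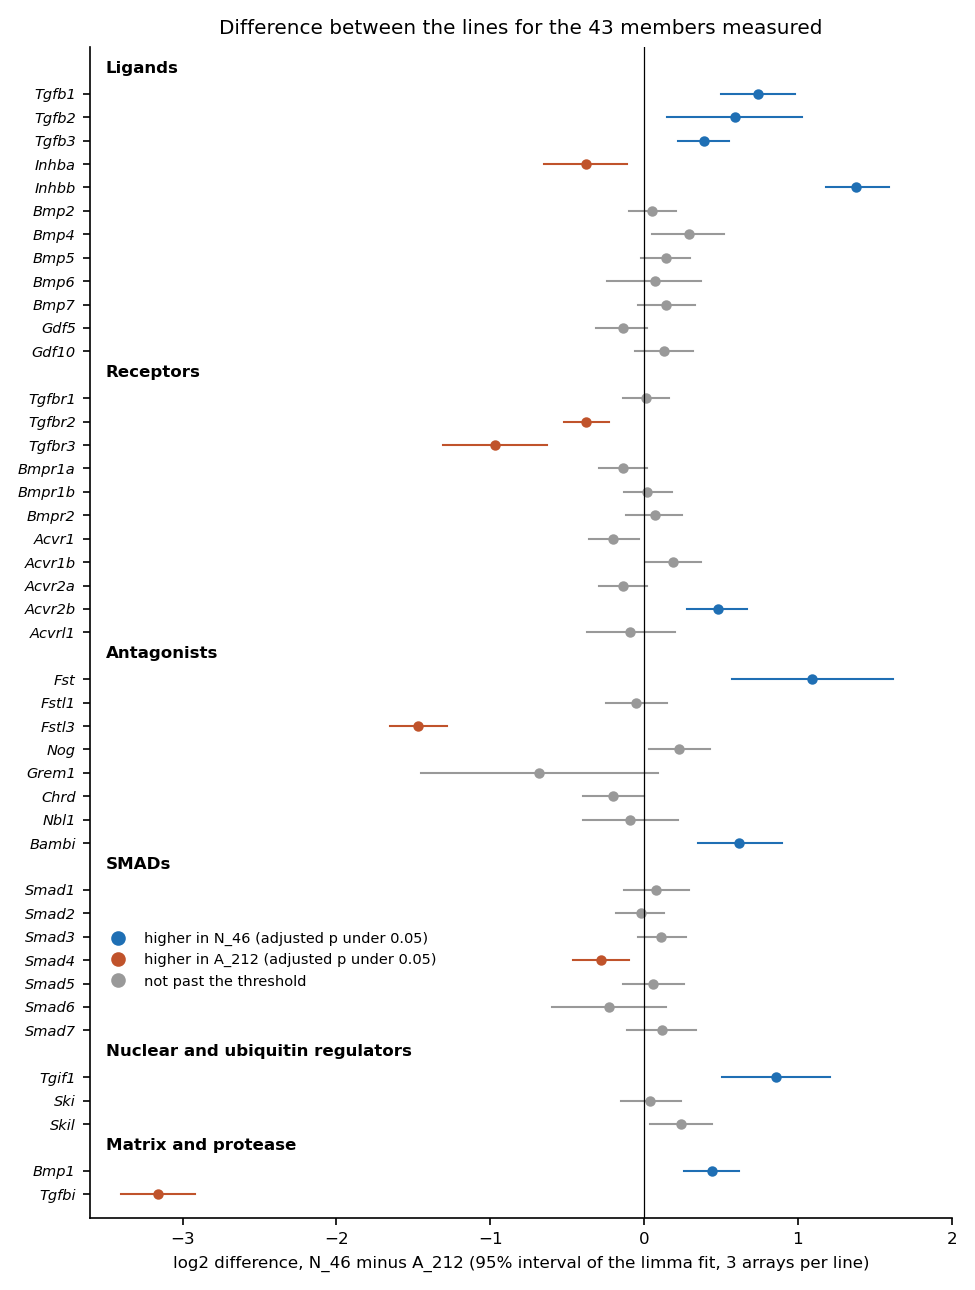
Log2 difference (N_46 minus A_212) of each of the 43 members measured, by role, with its 95% interval from limma (3 arrays per line). Blue and orange points passed an adjusted p under 0.05, 9 higher in N_46 and 6 higher in A_212, and grey points did not, with Tgfbi at -3.16 at the left end and Inhbb at 1.38 at the right end.

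SMAD proteins bind short DNA motifs, so the promoters of the members with a difference of at least 1 were read for them. RefSeq promoter sequences of build GRCm38.p6 were found for 3 of the 4, Inhbb, Fstl3 and Tgfbi. The 250 bases before the annotated start are shown 5′ to 3′ on the gene's own strand, with capitals marking the SMAD box CAGAC, on either strand, and the GC-rich SMAD motif GGCGCC. Inhbb lies on the minus strand at chr1:119422249-119422498, Fstl3 on the plus strand at chr10:79777024-79777273 and Tgfbi on the plus strand at chr13:56609336-56609585.
Inhbb: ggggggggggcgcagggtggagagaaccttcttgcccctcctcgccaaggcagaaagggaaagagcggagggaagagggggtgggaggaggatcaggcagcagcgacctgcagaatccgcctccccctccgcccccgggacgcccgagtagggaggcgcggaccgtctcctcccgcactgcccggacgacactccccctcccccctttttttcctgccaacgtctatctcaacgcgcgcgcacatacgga
Fstl3: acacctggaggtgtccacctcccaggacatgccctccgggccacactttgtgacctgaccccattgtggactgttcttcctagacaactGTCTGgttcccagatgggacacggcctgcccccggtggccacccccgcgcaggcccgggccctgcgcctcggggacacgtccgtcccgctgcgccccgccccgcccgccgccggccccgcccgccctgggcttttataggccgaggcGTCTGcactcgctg
Tgfbi: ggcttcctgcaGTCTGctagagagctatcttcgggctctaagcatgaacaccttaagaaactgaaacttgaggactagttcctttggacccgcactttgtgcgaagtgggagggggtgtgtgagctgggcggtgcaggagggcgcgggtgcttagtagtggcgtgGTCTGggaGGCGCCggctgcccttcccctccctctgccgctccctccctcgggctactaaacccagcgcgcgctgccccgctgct
CAGAC, which reads GTCTG on the other strand, occurred 2 times before Fstl3 and 2 times before Tgfbi, and 0 times before Inhbb. GGCGCC occurred 1 time before Tgfbi and 0 times before the other two, and the palindrome GTCTAGAC, which contains no copy of CAGAC, occurred in none of the 3. Among all 32851 promoter windows of this length, 42.2% held CAGAC, 9.59% held GGCGCC and 0.167% held GTCTAGAC, searched on both strands. These are matches of letters, and no binding was measured. G and C made up 68% of the Inhbb window, 71.2% of that of Fstl3 and 62.4% of that of Tgfbi. The median over all promoters was 52.4%, and the motif shares were not matched for this.

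Of 12 ligand genes measured, 5 passed the threshold (41.7%), near the 39.2% of all genes. They were Tgfb1, Tgfb2, Tgfb3 and Inhbb, higher in N_46, and Inhba, higher in A_212. These are all 5 measured members for TGF-betas and activin subunits. Of further activin beta subunit genes, which are no members, Inhbc differed by 0.04 and Inhbe by 0.11, and neither passed. None of the 7 BMP and GDF ligand genes passed in limma, and 1 of them had an unadjusted p under 0.05. The number called among the 5 fell to 3 without N_46 replicate 1, and the number among the 7 rose to 1 or 2 without A_212 replicate 2 or 3 and to 1 with array weights. Whether the ligand classes differ from each other was not tested.

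Inhbb encodes the beta B subunit, which forms activin B and inhibin B. Its mean over both probe sets was -0.83, -0.87 and -0.55 on the A_212 arrays and 0.67, 0.67 and 0.55 on the N_46 arrays. All N_46 arrays lay well above all A_212 arrays, with a difference of 1.38 ± 0.09 (SE, n = 3), a 2.61-fold difference (limma adjusted p = 1.1e-06). That mean joins probe sets of very different size. One read -1.41, -1.40 and -1.12 in A_212 and 1.30, 1.22 and 1.12 in N_46, a difference of 2.52 ± 0.10. The other differed by 0.24 ± 0.10 and did not pass when probe sets were tested one by one (limma adjusted p = 0.089), so the size of the Inhbb difference rests on 1 probe set. Tested singly, 28 of the 73 member probe sets passed, where 36% of all probe sets did.

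Inhba, which encodes the beta A subunit of activin A, differed in the opposite direction. Its arrays read 0.01, 0.41 and 0.36 in A_212 and -0.33, -0.03 and -0.01 in N_46. The lines did not overlap, but A_212 replicate 1 and N_46 replicates 2 and 3 lay within a few hundredths of each other, and the difference was -0.38 ± 0.12 (limma adjusted p = 0.03). The call ended in 4 of 14 alternatives, among them without A_212 replicate 2, without A_212 replicate 3 and without N_46 replicate 1 (-0.28, adjusted p = 0.1), and adjusted p ranged from 0.0029 to 0.11 over the alternatives. Inha, the alpha subunit that turns a beta subunit into an inhibin and is no member, was higher in N_46 at 0.51 ± 0.12.

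The TGF-beta isoform genes were all higher in N_46. Tgfb1 read -0.52, -0.32 and -0.23 in A_212 and 0.59, 0.23 and 0.34 in N_46, with no overlap. Its difference of 0.74 ± 0.11 (limma adjusted p = 3.2e-04) is 1.67-fold, and it was called in each of the 14 alternatives. Tgfb3 read -0.29, -0.13 and -0.23 in A_212 against 0.19, 0.19 and 0.13 in N_46. This narrower spread gave a difference of 0.39 ± 0.07 (limma adjusted p = 0.0016), called in all 14 alternatives too.

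For Tgfb2, a large part of the difference came from the arrays numbered 1. The gene read -0.84, -0.06 and -0.06 in A_212 and 0.58, 0.16 and 0.08 in N_46. A_212 replicate 1 was far below the other A_212 arrays, and N_46 replicate 1 far above the other N_46 arrays. The difference of 0.59 ± 0.20 passed (limma adjusted p = 0.038), but it was 0.33 (adjusted p = 0.09) without A_212 replicate 1, 0.44 (0.13) without N_46 replicate 1 and 0.18 (0.15) without both. Over all alternatives its adjusted p ranged from 0.019 to 0.15. The Tgfb2 call was also lost with plain probe sets alone and with robust eBayes, and 1 of its 3 probe sets passed singly.

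The BMP and GDF ligands, Bmp2, Bmp4, Bmp5, Bmp6, Bmp7, Gdf5 and Gdf10, had differences between -0.14 and 0.29. Bmp4, a dorsalising ligand of the early nervous system, was nearest to the threshold. It read -0.43, -0.05 and -0.06 in A_212 and 0.21, 0.05 and 0.06 in N_46, again with the arrays numbered 1 farthest out. Its difference was 0.29 (95% interval 0.05 to 0.52, limma adjusted p = 0.058), and 0.11 without both of those arrays. Bmp2, a close relative of Bmp4, differed by 0.05 (95% interval -0.10 to 0.21). The 95% intervals of the 7 lay between -0.31 and 0.52, so smaller differences were not resolved with 3 arrays per line.

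**Figure D2:**
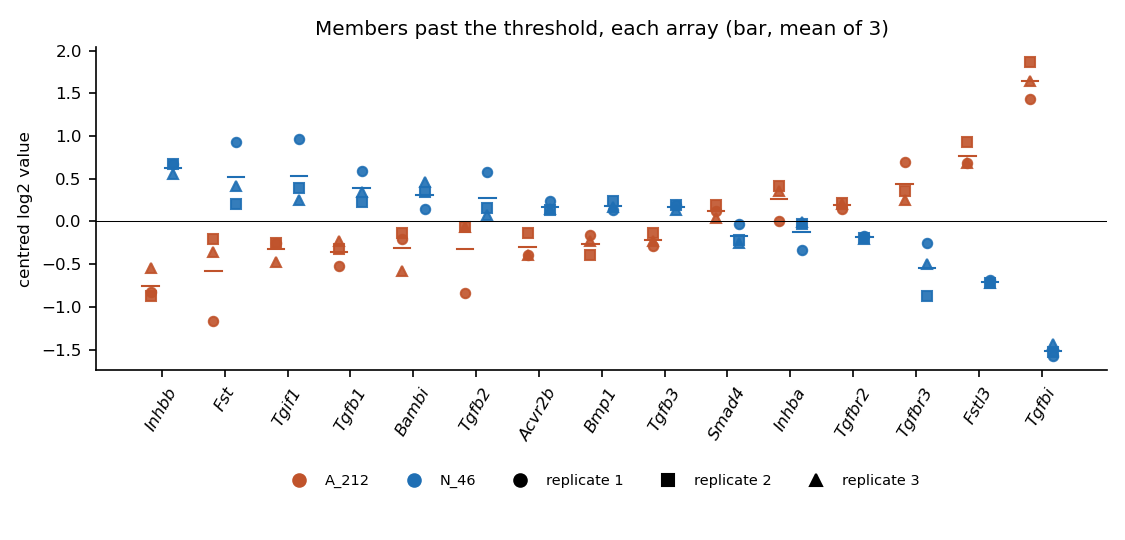
Centred log2 value on each of the 6 arrays for the 15 members past the threshold, ordered by difference, with A_212 in orange, N_46 in blue, the symbol shape giving the replicate and a bar at the mean of 3. Tgfbi spans 1.43 to 1.87 in A_212 and -1.57 to -1.44 in N_46, while Fst and Tgfb2 show the arrays numbered 1 far from the others of their line.

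Among the receptors, Tgfbr2 and Tgfbr3 were lower in N_46 and Acvr2b was higher. Of 11 receptor genes measured, 2 were higher in A_212, 1 was higher in N_46 and 8 did not pass, so that 27.3% were called where 39.2% of all genes were. Tgfbr3 encodes betaglycan, a co-receptor that presents TGF-beta to its signalling receptors and also binds inhibin. It read 0.69, 0.36 and 0.25 in A_212 and -0.25, -0.87 and -0.50 in N_46. Every N_46 array was below every A_212 array, and the difference was -0.97 ± 0.15, or 1.96-fold (limma adjusted p = 5.7e-04).

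Tgfbr2, the type II receptor that binds TGF-beta, read 0.15, 0.22 and 0.20 in A_212 and -0.17, -0.19 and -0.20 in N_46. The plates of each line were nearly alike, and the difference of -0.38 ± 0.07 passed (limma adjusted p = 0.0011). Of its 3 probe sets, 2 differed by -0.57 and -0.59 and the third by 0.04, so the mean understates what those 2 show. Tgfbr1, the type I partner of Tgfbr2, differed by 0.01 (95% interval -0.14 to 0.16). In the TGF-beta branch the called ligand genes Tgfb1, Tgfb2 and Tgfb3 were higher in N_46 and the called receptor genes Tgfbr2 and Tgfbr3 higher in A_212.

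Acvr2b, a type II receptor for activins, read -0.39, -0.13 and -0.39 in A_212 and 0.24, 0.13 and 0.15 in N_46. The arrays did not overlap, and the difference was 0.48 ± 0.09 (limma adjusted p = 0.0014). The other receptor genes, Acvr2a, Acvr1, Acvr1b, Acvrl1, Bmpr1a, Bmpr1b and Bmpr2, lay between -0.20 and 0.19. Bmpr1a, a type I BMP receptor, differed by -0.14 (95% interval -0.29 to 0.02) over 5 probe sets that ranged from -0.28 to 0.13, of which 3 passed when tested singly. Acvr1, another type I receptor of the BMP branch, differed by -0.20 (limma adjusted p = 0.057) and passed in 4 alternatives, among them without N_46 replicate 1 (-0.24), within an adjusted p range of 0.023 to 0.21. Of the 3 Acvr1 probe sets, 2 passed singly at -0.30 and -0.37, and the third differed by 0.08.

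**Figure D3:**
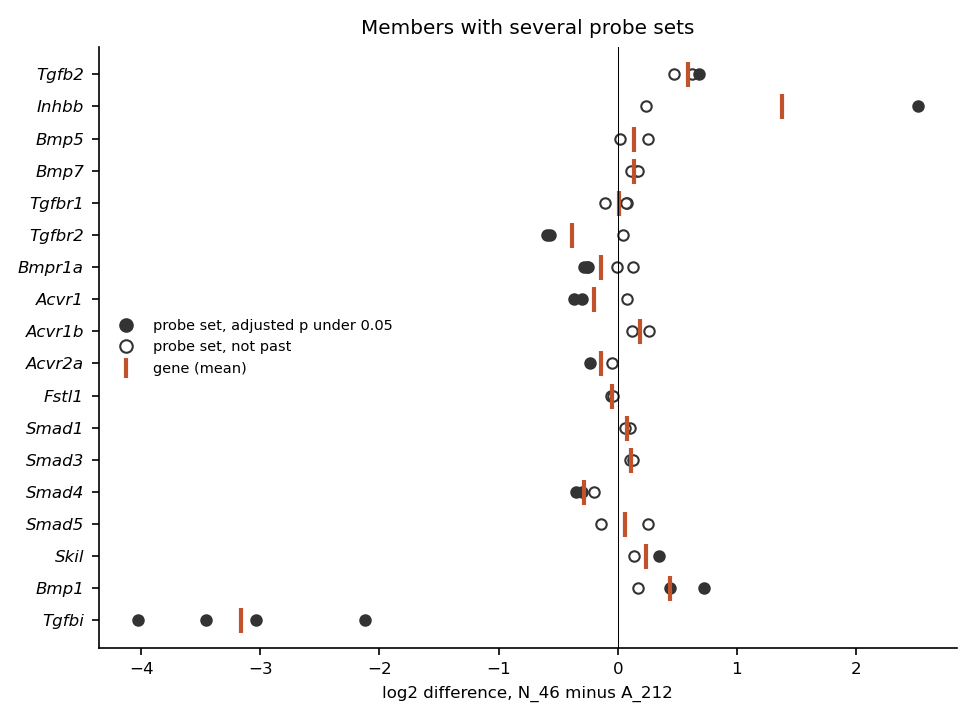
Log2 difference (N_46 minus A_212) of every probe set of the 18 members with more than 1, filled where the probe set passed an adjusted p under 0.05, with an orange tick at the gene's mean. Probe sets of Inhbb lie at 0.24 and 2.52 and those of Tgfbi between -4.03 and -2.12, and 5 members have probe sets on both sides of 0.

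Among the antagonists, Fstl3 and Fst differed by at least 1 in opposite directions. Of 8 measured antagonist genes, 2 were higher in N_46, 1 was higher in A_212 and 5 did not pass, a called share of 37.5% that is near the 39.2% of all genes. Fstl3 encodes a follistatin-like protein that binds activin and related ligands. It read 0.68, 0.93 and 0.68 in A_212 and -0.68, -0.72 and -0.72 in N_46. With the N_46 plates almost identical and the lines far apart, the difference was -1.47 ± 0.08, or 2.77-fold (limma adjusted p = 2.8e-07).

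Fst encodes follistatin itself, which binds activin nearly irreversibly. It read -1.16, -0.21 and -0.36 in A_212 and 0.93, 0.21 and 0.42 in N_46. The lines did not overlap, and the difference was 1.09 ± 0.24, or 2.13-fold (limma adjusted p = 0.004). As for Tgfb2, the arrays numbered 1 were the outermost, and without both of them the difference was 0.59 (adjusted p = 0.0018, in a range from 0.0018 to 0.018 over the alternatives). Activin-binding follistatin genes were thus higher in opposite lines, Fst in N_46 and Fstl3 in A_212.

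Bambi encodes a pseudoreceptor that lacks the kinase domain and blocks signalling at the membrane. It read -0.21, -0.14 and -0.58 in A_212 and 0.14, 0.34 and 0.46 in N_46, with no overlap. Its difference was 0.62 ± 0.12 (limma adjusted p = 0.0023), and it was called in each of the 14 alternatives.

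Noggin (Nog), a BMP antagonist, differed by 0.23 (95% interval 0.03 to 0.43, limma adjusted p = 0.071). Chrd, Nbl1, Fstl1 and Grem1, which encode chordin, the DAN protein, a follistatin-like glycoprotein and gremlin, did not pass either. Grem1 was singled out after its values were seen. It read -0.05, 0.05 and 0.22 in A_212 and 0.47, -1.12 and -1.17 in N_46. N_46 replicate 1 was above all A_212 arrays and the other two N_46 arrays were far below them. The difference was -0.68 ± 0.35 (limma adjusted p = 0.15), and without N_46 replicate 1 it was -1.22 ± 0.09 (adjusted p = 1.0e-05), the lowest and highest adjusted p over the alternatives being 6.6e-06 and 0.41. Nbl1 showed the same array apart, at 0.31 against -0.17 and -0.27 in N_46.

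**Figure D4:**
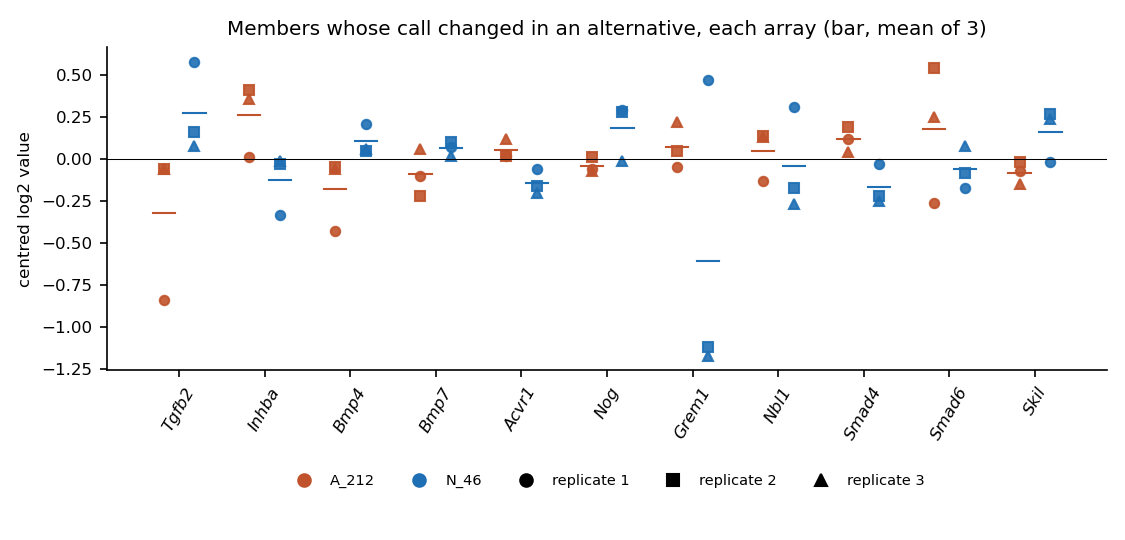
Centred log2 value on each of the 6 arrays for the 11 members that gained or lost their call in an alternative, with A_212 in orange, N_46 in blue, the symbol shape giving the replicate and a bar at the mean of 3. Grem1 in N_46 splits into 0.47 for replicate 1 against -1.12 and -1.17, and Tgfb2 and Bmp4 in A_212 have replicate 1 lowest.

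Of 7 SMAD genes measured, Smad4 was higher in A_212 and 6 did not pass, with differences from -0.23 to 0.12 and 95% intervals between -0.60 and 0.34. The called share was 14.3%, against 39.2% of all genes. Smad4, the common partner, read 0.12, 0.19 and 0.04 in A_212 and -0.03, -0.22 and -0.25 in N_46. The nearest arrays of the lines were only hundredths apart, and the difference of -0.28 ± 0.08 passed (limma adjusted p = 0.021). Its call was lost in 5 of 14 alternatives (adjusted p from 0.0031 to 0.095), including without A_212 replicate 1, without A_212 replicate 2, without N_46 replicate 2 and without N_46 replicate 3. Smad2 and Smad3, the effectors of TGF-beta and activin, differed by -0.02 and 0.11, and Smad1 and Smad5, the effectors of BMPs, by 0.08 and 0.06. The Smad5 value joins probe sets of opposite sign, at -0.14 and 0.25, neither of which passed singly. The inhibitory Smad7, itself induced by the pathway, differed by 0.12 (95% interval -0.11 to 0.34). Inhibitory Smad6 differed by -0.23 (-0.60 to 0.14), and its A_212 arrays ranged from -0.26 in replicate 1 to 0.54 in replicate 2. Without A_212 replicate 1, Smad6 passed at -0.45 (limma adjusted p = 0.01), in a range from 0.01 to 0.84 over the alternatives.

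Among the nuclear regulators, Tgif1, a homeodomain corepressor that binds Smad2 and Smad3 complexes, was higher in N_46. It read -0.25, -0.25 and -0.48 in A_212 and 0.96, 0.39 and 0.25 in N_46. All N_46 arrays were above all A_212 arrays, with replicate 1 highest, and the difference was 0.86 ± 0.16, or 1.81-fold (limma adjusted p = 0.0014). The corepressor genes Ski and Skil differed by 0.04 and 0.24 and did not pass. Skil, which is also induced by TGF-beta, passed without N_46 replicate 1 (0.34, limma adjusted p = 0.008, in a range from 0.008 to 0.32), and 1 of its 2 probe sets passed singly at 0.35.

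The largest difference among the members was that of Tgfbi, a secreted matrix protein named for its induction by TGF-beta. It read 1.43, 1.87 and 1.64 in A_212 and -1.57, -1.53 and -1.44 in N_46. The lines were separated by far more than the spread of either, at -3.16 ± 0.11, or 8.94-fold (limma adjusted p = 5.8e-09). All 4 probe sets were negative, from -4.03 to -2.12, and 0.646% of all genes had a difference at least as large. For this and every other member, in RNA of whole plates, fewer cells with a transcript and less of it per cell cannot be told apart. Bmp1, a protease that trims procollagens and also releases BMPs by cleaving chordin, went the other way. It read -0.16, -0.39 and -0.23 in A_212 and 0.13, 0.24 and 0.17 in N_46. The groups were separated, with a difference of 0.44 ± 0.08 (limma adjusted p = 0.0014). Of the 3 Bmp1 probe sets, 2 passed singly at 0.44 and 0.72, and the third differed by 0.17 and did not pass.

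Markers of fibroblasts and mesenchyme moved with the line. Of 12 measured, 9 were higher in A_212 and 1 in N_46 (83.3% called, where 39.2% of all genes were), and their mean over the list was 0.82 to 1.07 on the A_212 arrays and -1.03 to -0.85 on the N_46 arrays. Among 8 markers of smooth muscle and pericytes, A_212 was higher for 5 and N_46 for 1 (75% called), with list means of 0.24 to 0.39 against -0.52 to -0.31. Of 6 neural progenitor markers, 4 were higher in N_46 and 1 in A_212 (83.3% called), with list means of -0.76 to -0.67 in A_212 and 0.64 to 0.75 in N_46. Those means rest mainly on Sox2, which differed by 7.24, while the other 5 lay between -0.64 and 0.99 and the list median was 0.41. Neuronal markers were called for 5 of 12 (41.7%, near the share of all genes). Of these, 3 were higher in A_212, Stmn2 (-3.09), Eno2 (-1.47) and Tubb3 (-1.13), and 2 in N_46, Map2 (0.25) and Gap43 (0.24). The neuronal list means were 0.17 to 0.20 on the A_212 arrays and -0.23 to -0.19 on the N_46 arrays. These neuronal means rest mainly on Stmn2, Eno2 and Tubb3. The 7 neuronal markers not called lay between -0.08 and 0.11, and the list median was 0.07. Astrocyte markers were called for 1 of 6 (16.7%), higher in N_46. Since the values are centred, which of these markers are absent cannot be read, and their part in the differences of the members was not tested.

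Other genes of the extracellular part of the pathway were counted from a separate list of 49, of which 32 were measured. Of these, 8 were higher in A_212, 3 were higher in N_46 and 21 did not pass, 34.4% called against 39.2% of all genes, with a median of 0.07. The latent TGF-beta binding proteins, which tether TGF-beta to the matrix, split. Ltbp2, a matrix relative that does not itself bind latent TGF-beta, read 1.60, 2.26 and 2.18 in A_212 and -1.72, -1.60 and -1.75 in N_46, a difference of -3.71 ± 0.15. Ltbp1, named after its value was seen, was also higher in A_212, at -1.08 ± 0.07. Ltbp3 (0.63 ± 0.09) and Ltbp4 (0.93 ± 0.07) were higher in N_46. Further genes higher in A_212 were the TGF-beta-binding proteoglycan decorin (Dcn, -1.51 ± 0.19), Nrep (-1.54 ± 0.17) and Lefty1, a Nodal antagonist (-1.40 ± 0.11). Limma adjusted p-values for these 7 lay between 1.8e-08 for Ltbp2 and 2.4e-04 for Ltbp3. The 3 genes higher in N_46 were 6 without A_212 replicate 3 and 7 with array weights.

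Of 41 other receptor and intracellular genes measured, 21 did not pass and 10 were higher in N_46 and 10 in A_212, 48.8% called, with a median of -0.00. Endoglin (Eng), a co-receptor for TGF-beta and BMPs, had the largest difference, at -2.44 ± 0.10. It read 0.98, 1.23 and 1.21 in A_212 and -1.11, -1.39 and -1.41 in N_46. Endoglin was thus higher in A_212, as was the co-receptor betaglycan among the members. Tgfb1i1 (-1.28 ± 0.10), the endocytic adaptor gene Dab2 (-0.69 ± 0.12) and the transcriptional co-regulator gene Cited2 (-0.53 ± 0.09) were higher in A_212 as well. Pmepa1, a TGF-beta-induced gene whose product sequesters receptor-regulated SMADs, was higher in N_46 at 1.12 ± 0.14, as was Strap, a receptor-binding WD repeat protein, at 0.69 ± 0.09. Nedd4l, a ubiquitin ligase of SMADs, was called at 0.44 ± 0.07 in favour of N_46 over probe sets of -0.01 and 0.88, and Runx3 at 0.34 ± 0.10. The 10 higher in N_46 were 6 without A_212 replicate 2 or N_46 replicate 1 and 5 without N_46 replicate 2 or 3. The 10 higher in A_212 were 6 without A_212 replicate 1, N_46 replicate 1 or N_46 replicate 3.

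Genes reported as targets of the pathway in other systems did not move one way. Of 37 reported TGF-beta targets measured, 18 were higher in A_212, 11 were higher in N_46 and 8 did not pass, 78.4% called against 39.2% of all genes, with a median of -0.22. Of them, 4 were also on the fibroblast list and 3 on the smooth muscle list. Besides Ltbp2, the genes with the largest differences in favour of A_212 were Mmp2 (-5.26 ± 0.08), Postn (-5.14 ± 0.24) and Col3a1 (-3.59 ± 0.11), all products of the matrix or its remodelling. In favour of N_46 they were the matricellular genes Ccn2 (2.93 ± 0.11) and Ccn1 (2.18 ± 0.17), the growth factor gene Pdgfb (1.81 ± 0.13) and the metalloproteinase inhibitor gene Timp3 (1.50 ± 0.09). Adjusted p-values of these 7 in limma ranged from 3.3e-11 for Mmp2 to 3.7e-06 for Ccn1. Ccn2 read -1.74, -1.59 and -1.29 in A_212 and 1.40, 1.48 and 1.29 in N_46, opposite to Tgfbi on the same arrays.

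Of 19 reported BMP targets measured, 6 were higher in N_46, 5 were higher in A_212 and 8 did not pass, 57.9% called, with a median of 0.07. Id4, a dominant-negative helix-loop-helix factor, differed by 2.93 ± 0.15, followed by Hes1 (1.62 ± 0.14), Dlx5 (1.26 ± 0.16) and Id1 (1.08 ± 0.28). Id1, a widely used readout of BMP signalling, read -0.75, -0.01 and -0.20 in A_212 and 0.01, 1.07 and 1.18 in N_46. N_46 replicate 1 was only just above the highest A_212 array, and the difference passed at a limma adjusted p of 0.011. The related Id2 (0.58, limma adjusted p = 0.095) and Id3 (-0.18, limma adjusted p = 0.66) did not pass. In both, N_46 replicate 1 was the lowest N_46 array, at -0.28 for Id2 and -1.15 for Id3. In favour of A_212 were the transcription factor genes Gata3 (-0.99 ± 0.10), Tbx20 (-0.98 ± 0.07), Msx2 (-0.96 ± 0.09) and Gata2 (-0.77 ± 0.07). Both target lists hold genes that many other pathways control, and these counts describe the lists without testing pathway activity.

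**Figure D5:**
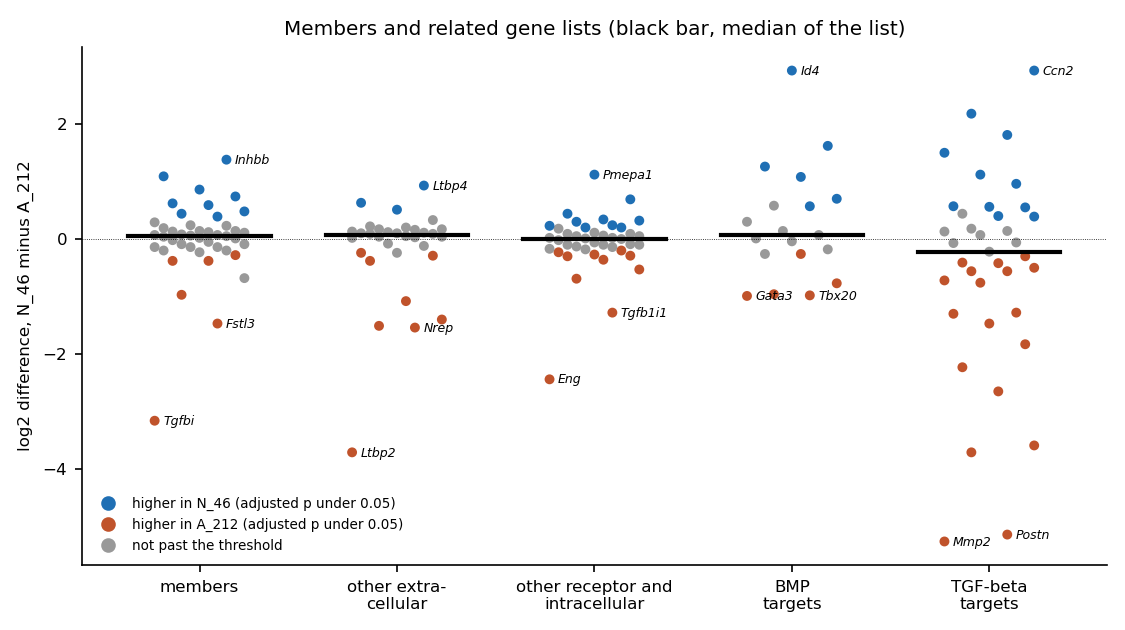
Log2 difference (N_46 minus A_212) of the 43 members and of the genes of 4 related lists, 1 point per gene, coloured by call (adjusted p under 0.05), with a black bar at each list's median. Medians lie between -0.22 for TGF-beta targets and 0.07, while single genes reach from -5.26 (Mmp2) to 2.93 (Ccn2 and Id4).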

How the data were processed

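Per the labels' protocols, total RNA of each plate was isolated on RNeasy columns, and biotinylated cRNA was made from 5 ug for microarrays, whose probe set names are in Affymetrix form. The authors' deposited values are log2 expression from RMA, named without a version in the submitters' processing notes. RMA corrects background, quantile-normalises arrays, so that a difference in total RNA would not show, and summarises probes. Each of the 22690 probe sets has a median of 0 across the 6 arrays (to within 5.0e-07), so the deposited log2 values were centred at an undescribed step, and base 2 was inferred from RMA.

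The platform annotation gives 1 gene for 20380 probe sets, several for 691 and none for 1555 (both left out), and 64 are controls. A gene is the mean of its probe sets, 18 members having more than 1. Lines were taken from the sample titles. Genes were compared with limma 3.58.1 (R 4.3.3; lmFit, eBayes, two-sided) on all 6 arrays. The code was also run on simulated data, in which far fewer genes changed than were called here. That run therefore does not bear on the calls. Python 3.11.15, pandas 2.3.3 and matplotlib 3.10.9 made tables and plots. The members, lists, subgroups of ligands and tests were chosen with earlier results of these data known. Genes were named by rule: every member, in full at a difference of at least 1, and up to 4 genes each way from each other list. Inhbc, Inhbe, Id2 and Id3 were named besides these after their values were seen. Array values and alternatives of further genes were picked after seeing them. Alternatives were array scaling, leaving out each array, weighting arrays, blocking by replicate number, the median of probe sets, plain probe sets, robust eBayes, a 2-fold bound and single probe sets. Leaving out both arrays numbered 1 was added after seeing the data.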

Additional observations from a re-analysis of the deposited data

How the results depend on the processing

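Of the 15 member calls, 12 kept their direction and their call in every one of 14 alternatives that could measure them, and 3 (Tgfb2, Inhba and Smad4) lost it in some. Of 28 members not called, 8 (Bmp4, Bmp7, Acvr1, Nog, Grem1, Nbl1, Smad6 and Skil) were called in some alternative and 20 in none. The member count of 15 was between 14 and 16 with each array left out in turn, 18 with array weights, 16 with arrays scaled to a common median or 75th percentile, 12 of 39 measured with plain probe sets, 14 with robust eBayes, 18 without both arrays numbered 1, and 19 for members with at least 1 probe set called singly. Against a 2-fold bound (treat), 3 members were called, 1 higher in N_46 (Inhbb) and 2 in A_212 (Fstl3 and Tgfbi). With the replicate number as a block, 15 members and 4834 of all genes were called, against 15 and 4853 without it. Deviations of same-numbered arrays correlated at -0.0272, -0.0122 and 0.0932, so the numbers were not taken as a pairing. Over all genes the count ranged from 3837 (plain probe sets) to 5757 (array weights).

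The sign turned in some alternative for 10 members that were not called with all arrays. Of these only Nbl1 was called in any alternative (-0.36, without both arrays numbered 1, limma adjusted p = 0.011, in a range from 0.011 to 0.94). With each array left out in turn, Bmp6 ranged from -0.08 to 0.20, Tgfbr1 from -0.01 to 0.03, Bmpr1b from -0.02 to 0.05, Acvrl1 from -0.25 to 0.01, Fstl1 from -0.12 to 0.02, Nbl1 from -0.27 to 0.02, Smad1 from -0.02 to 0.14, Smad2 from -0.05 to 0.02, Smad5 from -0.01 to 0.13 and Ski from -0.05 to 0.11. Without both arrays numbered 1, Bmp6 was at -0.17, Smad2 at 0.02 and Ski at -0.04. With arrays scaled to a common median, Tgfbr1 was at -0.02 and Bmpr1b at -0.01, and at a common 75th percentile Tgfbr1 was at -0.00. Array weights gave 0.01 for Acvrl1, -0.00 for Smad1 and -0.03 for Ski, and plain probe sets gave -0.02 for Tgfbr1 and -0.14 for Smad5. The cause was not tested. Centred values give no signal over background, so members near background cannot be set apart.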

Other observations

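Within the arrays numbered 1, several members lay outermost in both lines at once. Among others, for Tgfb2, Bmp4, Fst and Tgfb1, A_212 replicate 1 was the lowest A_212 array and N_46 replicate 1 the highest N_46 array. These examples were picked after seeing the values, and the share of genes outermost in both lines was not counted. A_212 replicate 1 was farthest from its line mean for 37.2% of members and 27.9% of all genes. For N_46 replicate 1 the shares were 58.1% and 47.1%. Over all genes, deviations of these arrays correlated at -0.0272. Over the 43 members, the mean absolute deviation from the line mean was 0.15 for N_46 replicate 1, against 0.08 and 0.09 for N_46 replicates 2 and 3, and 0.12 for A_212 replicate 1, against 0.10 and 0.09 for the other A_212 arrays. Over all genes these deviations were 0.08 for N_46 replicate 1, 0.06 for N_46 replicates 2 and 3, and 0.08 to 0.09 in A_212. The numbers in the titles carry no stated meaning.

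Among members with several probe sets, 9 of 18 had some probe sets past the threshold and others not, and 0 had called probe sets of both signs. Of the 73 member probe sets, 28 (38.4%) passed singly, 17 higher in A_212 and 11 higher in N_46, against 36% of all probe sets. By genes the majority was the other way, 9 higher in N_46 and 6 higher in A_212, and Tgfbi alone held 4 of the 17.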
